A study of Mus musculus with 8 samples.

Results

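Neurotrophins and the GDNF family (glial cell line-derived neurotrophic factor and its relatives) are secreted survival factors, and this account follows 8 of their genes in ribosome-bound RNA of the aged mouse striatum. The genes were taken by symbol from the 32531 in each count table, and all 8 were found: the receptor tyrosine kinase genes Ntrk2 and Ntrk3, the shared neurotrophin receptor gene Ngfr, the sorting receptor gene Sort1, the ligand gene Bdnf, the GDNF family co-receptor genes Gfra1 and Gfra2, and Ret. RNA came from dorsal striatum (4 libraries) and nucleus accumbens (4 libraries) of mice older than 20 months that carried the transgene Drd1-EGFP/Rpl10a (line CP73). In these mice a green fluorescent ribosomal protein is made under the Drd1 promoter, that of the dopamine D1 receptor gene, and polysomes were pulled down from the dissected tissue with antibodies against it. Both groups share the transgene, the age and the lack of any treatment. The labels do not say whether a library came from 1 mouse or several, and p-values therefore speak only of the spread among these libraries. The purification is meant to enrich direct-pathway spiny projection neurons, but its yield over whole tissue was not measured here.

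In this system BDNF binds the kinase TrkB, the product of Ntrk2, and neurotrophin-3 binds TrkC, the product of Ntrk3. The p75 receptor, the product of Ngfr, binds all neurotrophins and pairs with sortilin, the product of Sort1, to bind their uncleaved precursors. GDNF and neurturin act through a co-receptor anchored in the outer membrane, GFRα1 (Gfra1) for GDNF and GFRα2 (Gfra2) for neurturin, which then engages the kinase RET. GFRα1 can also work with the adhesion molecule NCAM (Ncam1). The striatum is known to receive BDNF made by cortical neurons, and GDNF made in the striatum is known to act on dopamine neurons that project there.

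Gene counts per library ran from 7466970 to 10363145 in dorsal striatum and from 10831937 to 12639641 in accumbens, with no overlap, so low genes were measured more deeply in accumbens. The share of reads not assigned to a single gene also separated the regions, at 27.1% to 33.8% in dorsal striatum and 35.5% to 40.6% in accumbens, and its part in the differences below was not tested. Levels are given in CPM, counts scaled to a common library total. The D1 receptor gene Drd1 was present in every library, at 533 to 669.6 CPM over the dorsal libraries and 363 to 555 CPM over the accumbens ones. Rank correlations of each library with the other 7 had medians of 0.927 to 0.955, lowest for accumbens 2 (0.927) and dorsal striatum 3 (0.935), and results are also given without both where that changed a call.

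Gfra1 was the member that differed between the regions. It rose 3.47-fold in accumbens (95% interval 2.20 to 5.49), while Ntrk2, Ntrk3, Sort1 and Gfra2 did not pass the test, and Bdnf, Ngfr and Ret were too low to enter it. Of the 5 members tested, 1 passed edgeR's quasi-likelihood test (called where the Benjamini-Hochberg adjusted p was below 0.05). Of all 12467 genes tested, 3.72% were called, 1.6% as higher and 2.12% as lower in accumbens. With so few members tested, that count does not set the family apart.

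Gfra1 (chromosome 19, 58235604 to 58455909, minus strand) stood at 11.5, 21.5, 7.06 and 13.99 CPM in dorsal striatum 1 to 4 and at 52.4, 52.3, 31.1 and 52.7 CPM in accumbens 1 to 4. These values rest on 51 to 203 counts per dorsal library and 394 to 637 per accumbens library. Every accumbens library lay above every dorsal one, 3 of them within 1 CPM of each other and accumbens 3 below them. The means were 13.5 ± 6.07 CPM and 47.1 ± 10.7 CPM (SD over n = 4 libraries each), with a log2 fold change of 1.80 ± 0.31 SE for accumbens over dorsal striatum (edgeR adjusted p = 0.00219). Leaving out 1 library at a time gave log2 fold changes from 1.59 to 2.11, all called (adjusted p from 0.00108 to 0.0126). Without accumbens 2 and dorsal striatum 3 together the value was 1.53 (adjusted p = 0.0120). In bulk RNA of this kind, fewer cells of a type and less RNA per cell cannot be told apart. An exon of Gfra1 overlaps an antisense gene, Gm16277, that has no row of its own in the count tables, and whether counting used strand is not given in the sources used here.

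**Figure D1:**
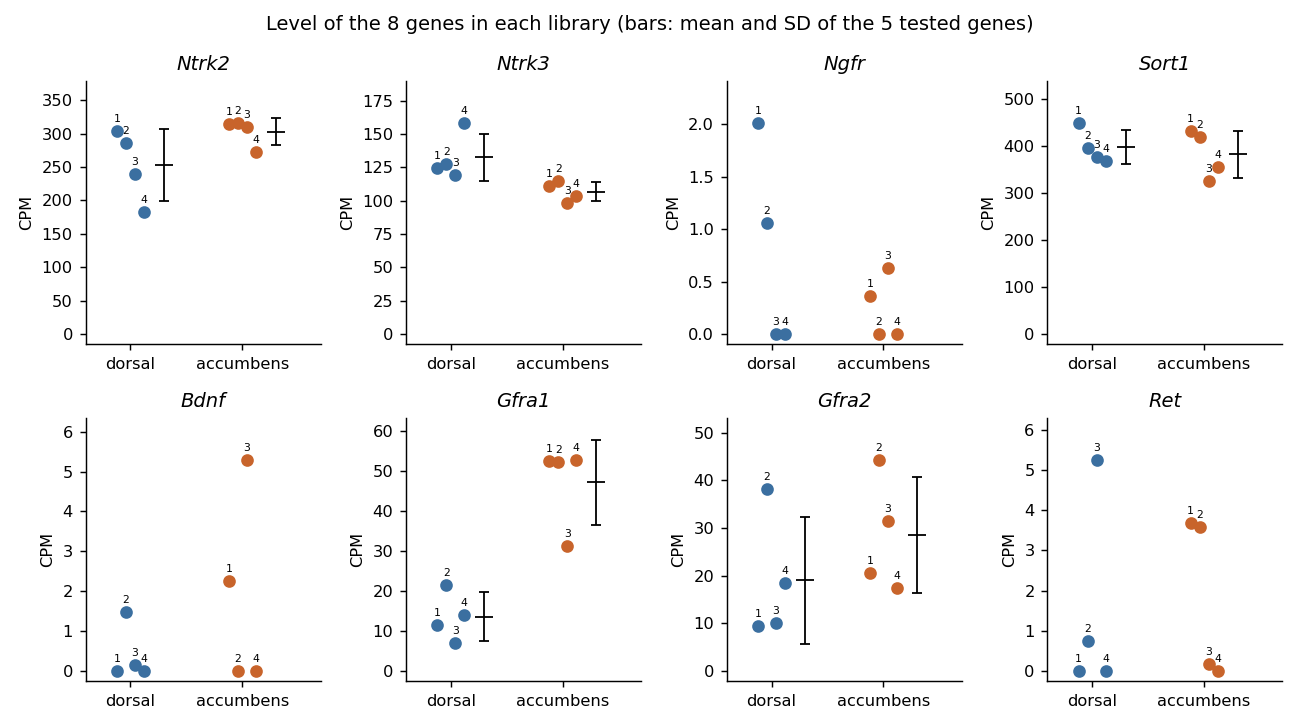
CPM of each gene in each library, with the replicate number above each point and dorsal striatum (blue) left of accumbens (orange). Bars give the mean and SD of 4 libraries for the 5 tested genes. The accumbens values of Gfra1, 31.1 to 52.7 CPM, lie above all dorsal ones, and those of Ntrk3 lie below all dorsal ones.

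Markers of other cells were set beside Gfra1. The level of 13 astrocyte and oligodendrocyte markers, as log2 CPM centred on each gene's mean, averaged -0.28 ± 0.58 over the dorsal libraries and 0.28 ± 0.32 over the accumbens libraries (SD, n = 4 per region; exact permutation p = 0.143, two-sided). With that level as a covariate the log2 fold change of Gfra1 was 1.47 ± 0.36 SE and no longer called (edgeR adjusted p = 0.0509). The glial levels overlapped between the regions, from -0.94 to 0.47 in dorsal striatum and from -0.11 to 0.66 in accumbens. Log2 fold changes were positive for 6 of 7 tested astrocyte and 6 of 6 tested oligodendrocyte markers, and for 6458 of all 12467 tested genes. Only Slc1a2 of astrocytes was called higher, as were 1.6% of all tested genes. It had 230 ± 62.3 and 433 ± 173 CPM (SD over n = 4 libraries each, edgeR adjusted p = 0.0452), and the regions overlapped. Limma-voom called 0 of the 7 astrocyte markers and DESeq2 called 2.

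The summed markers of indirect-pathway neurons, the D2 receptor population, separated the regions. Their 6 genes, all of them detected, summed to 223 to 333 CPM over the dorsal libraries and 628 to 908 CPM over the accumbens ones. Of the 6, 3 (Drd2, Adora2a and Penk) were called higher in accumbens, as were 1.6% of all tested genes. The 7 markers of direct-pathway neurons, Drd1 among them, summed to 2071 to 2307 CPM over the dorsal libraries and 1732 to 1991 CPM over the accumbens ones. Of the 7, 2 (Ebf1 and Eya1) were called lower in accumbens, as were 2.12% of all tested genes, and 1 (Pdyn) higher. Drd1 was 0.720-fold in accumbens and was not called (edgeR adjusted p = 0.0750). The 8 GABA interneuron markers summed to 39.8 to 81.7 CPM and 59.9 to 96.03 CPM. Of 4 tested members, 0 were called by edgeR, DESeq2 or limma-voom and 0 had an unadjusted p below 0.05. Within this list Sst stood at 18.95 to 57.1 CPM and Nos1 at 8.38 to 28.4 CPM over all libraries. Pvalb, the marker of fast-spiking interneurons, reached at most 1.17 CPM in any library. The 5 oligodendrocyte precursor markers summed to 1.77 to 9.33 CPM and 5.06 to 13.7 CPM. The 7 endothelial markers summed to 6.86 to 75.4 CPM and 6.74 to 190.5 CPM. The part of the neuronal, precursor and vascular markers in the Gfra1 difference was not tested.

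**Figure D2:**
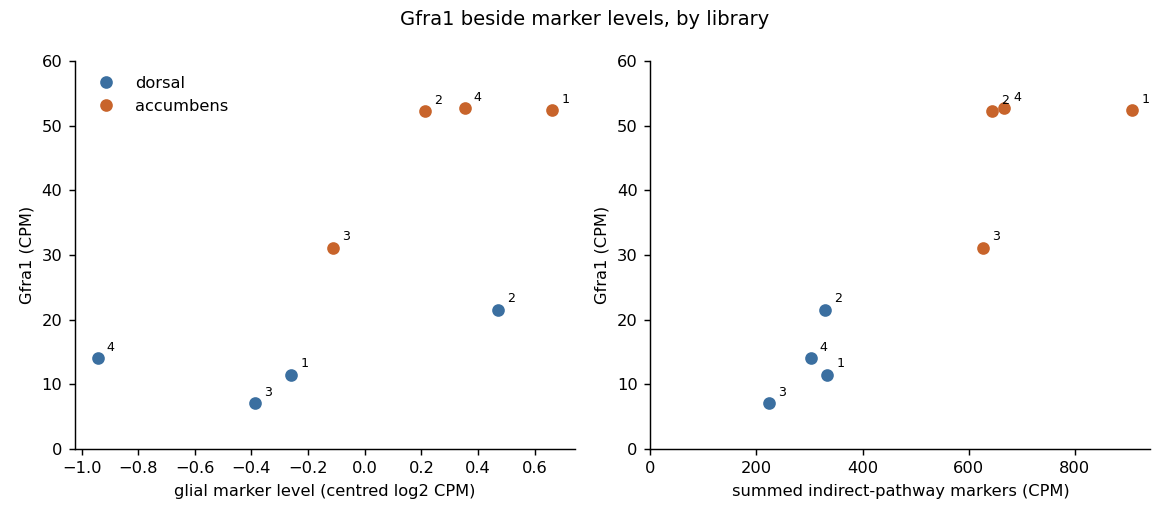
CPM of Gfra1 in each library (vertical axis) against the glial marker level in centred log2 CPM (left) and against the summed CPM of 6 indirect-pathway markers (right), with replicate numbers beside the points. On the left the regions overlap in glial level, and on the right they separate on both axes.

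The genes whose pattern over the 8 libraries was nearest to that of Gfra1 were Fmnl2, Gpr149 and Adora2a. Likeness was the root-mean-square difference in log2 CPM, each gene centred on its own mean, among 9297 genes averaging at least 5 CPM. It was 0.206 for Fmnl2, which encodes a formin that builds actin filaments, 0.326 for Gpr149, an orphan receptor, and 0.330 for Adora2a, an adenosine receptor gene of indirect-pathway neurons, where the median gene had 1.10. Fmnl2 stood at 8.72 ± 3.24 CPM over the dorsal libraries and 33.2 ± 8.05 CPM over the accumbens ones (SD over n = 4 libraries each). The measure describes these libraries and carries no test.

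The related co-receptor gene Gfra2 (chromosome 14, 70890120 to 70979838) stood at 9.47, 38.1, 9.96 and 18.3 CPM in dorsal striatum 1 to 4 and at 20.5, 44.3, 31.5 and 17.5 CPM in accumbens 1 to 4. The regions overlapped, with dorsal striatum 2 above 3 accumbens libraries and dorsal striatum 4 above accumbens 4. The means were 18.96 ± 13.4 CPM and 28.5 ± 12.2 CPM (SD over n = 4 libraries each; edgeR log2 fold change 0.58 ± 0.41 SE, adjusted p = 0.578). The interval of the difference, from 0.823-fold to 2.72-fold, includes both lower and higher levels in accumbens, and Gfra1 and Gfra2 were also compared within each library. Gfra1 had 1.21, 0.566, 0.710 and 0.764 times the counts of Gfra2 in dorsal striatum 1 to 4 and 2.55, 1.18, 0.987 and 3.01 times in accumbens 1 to 4. On the log2 scale the mean ratio was -0.36 ± 0.46 for the dorsal and 0.79 ± 0.80 for the accumbens libraries (SD over n = 4 libraries each), and the difference of 1.15 did not pass (two-sided exact permutation p = 0.0857, the same after adjustment over the 3 ratios tested). A difference between the fold changes of Gfra1 and Gfra2 is therefore not shown by the ratio.

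RET, the kinase through which both co-receptors signal, was barely measured. Ret (chromosome 6, 118151745 to 118197718) had 0, 7, 38 and 0 counts in dorsal striatum 1 to 4 and 41, 42, 2 and 0 in accumbens 1 to 4. The counts were at or near 0 in some libraries of each region and around 40 in others, and the regions overlapped. A count of 3, which a count of 0 still allows, corresponds to 0.237 to 0.402 CPM in these libraries, a limit for counting error only. The GDNF gene itself, Gdnf, stood at 3.19 ± 1.75 and 3.13 ± 1.60 CPM (SD over n = 4 libraries each; edgeR log2 fold change -0.03 ± 0.71 SE, adjusted p = 0.993). Nrtn, which encodes neurturin, had no count in any of the 8 libraries. Gfra4, the co-receptor gene for persephin, stood at 35.3 ± 10.1 and 36.5 ± 15.0 CPM (15.2 to 48.8 CPM over all accumbens libraries, adjusted p = 0.974). Ncam1, the other partner of GFRα1, was abundant, at 324 to 379 CPM over the dorsal libraries and 414 to 435 CPM over the accumbens ones. Its regions did not overlap, but its log2 fold change of 0.29 ± 0.11 SE was not called (edgeR adjusted p = 0.205).

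Among the neurotrophin receptors, both Trk kinase genes were abundant, with fold changes of opposite sign that did not pass the test. Ntrk2 (chromosome 13, 58806569 to 59133970) stood at 304, 286, 239.7 and 183 CPM in dorsal striatum 1 to 4 and at 314, 316, 309.6 and 272 CPM in accumbens 1 to 4. Dorsal striatum 4 was the lowest, and the regions overlapped through accumbens 4. The means were 253 ± 53.9 and 303 ± 20.4 CPM (SD over n = 4 libraries each; edgeR log2 fold change 0.26 ± 0.15 SE, adjusted p = 0.464, interval 0.960-fold to 1.49-fold). Ntrk2 is also known for a truncated form without the kinase that astrocytes make, and counts per gene do not separate the forms. With the glial marker covariate its log2 fold change was 0.09 (adjusted p = 0.952).

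Ntrk3 (chromosome 7, 78175959 to 78738012) stood at 124, 128, 119 and 158 CPM in dorsal striatum 1 to 4 and at 111, 115, 98.01 and 104 CPM in accumbens 1 to 4. Every dorsal library lay above every accumbens one, as was the case in one direction or the other for 9.69% of all tested genes (4.51% with accumbens higher, 5.18% with accumbens lower). The means were 132 ± 17.4 and 107 ± 7.40 CPM (SD over n = 4 libraries each), and the log2 fold change of -0.31 ± 0.15 SE was not called (edgeR adjusted p = 0.342, unadjusted 0.0517). Gfra1 and Ntrk3 were the 2 members without overlap.

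Within each library, the balance of the Trk genes differed between the regions. Ntrk2 had 2.44, 2.24, 2.01 and 1.16 times the counts of Ntrk3 in dorsal striatum 1 to 4 and 2.83, 2.75, 3.16 and 2.62 times in accumbens 1 to 4. No accumbens library overlapped a dorsal one, with a mean log2 ratio of 0.92 ± 0.48 over the dorsal libraries and 1.503 ± 0.11 over the accumbens ones (SD, n = 4 each). The difference of 0.59 had a two-sided exact permutation p of 0.0286, the smallest that 4 against 4 libraries allow, and 0.0429 adjusted over the 3 ratios. Without dorsal striatum 4, which had the least Ntrk2 and the most Ntrk3, the difference was 0.35, and the exact permutation test of 3 against 4 libraries cannot go below p = 0.0571. The part of the glial level in this ratio was not tested.

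**Figure D3:**
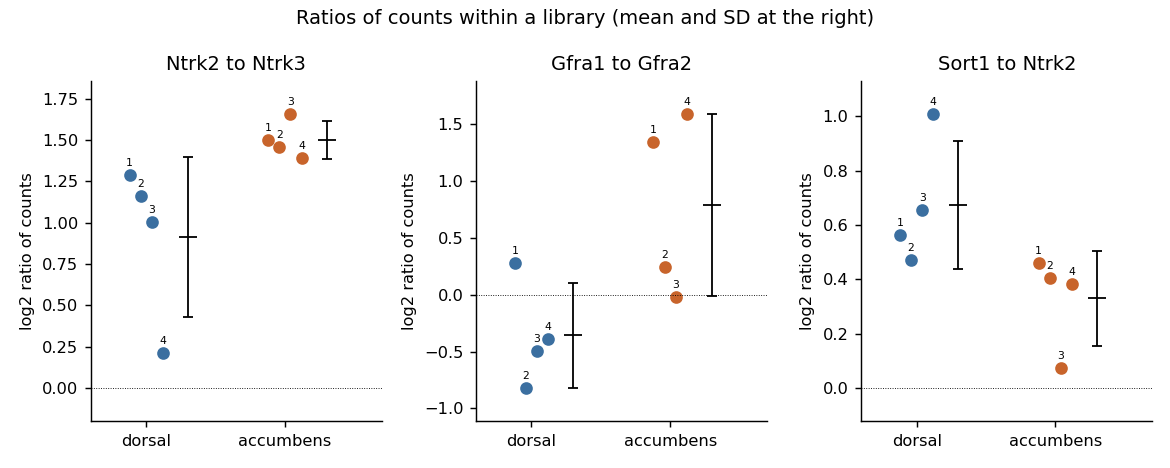
Log2 ratio of counts of 2 member genes within each library, with replicate numbers above the points and bars for the mean and SD of 4 libraries. The regions do not overlap for Ntrk2 to Ntrk3 or for Sort1 to Ntrk2, and they overlap for Gfra1 to Gfra2.

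Sort1, whose product sorts precursors of neurotrophins and other cargo, was the most abundant member. It lies on chromosome 3 (108284082 to 108361511) and stood at 449, 396, 378 and 368 CPM in dorsal striatum 1 to 4 and at 431, 418, 326 and 355 CPM in accumbens 1 to 4. The regions overlapped over most of their range. The means were 398 ± 35.9 and 382 ± 50.5 CPM (SD over n = 4 libraries each; edgeR log2 fold change -0.06 ± 0.13 SE, adjusted p = 0.905), and the interval from 0.798-fold to 1.16-fold bounds any difference to a small one. Its ratio to Ntrk2 was lower in accumbens, at 1.37, 1.33, 1.05 and 1.30 times against 1.48, 1.39, 1.57 and 2.01 times in dorsal striatum. The regions were separated by a narrow gap, with a difference of -0.34 in mean log2 ratio (two-sided exact permutation p = 0.0286, again the smallest possible, 0.0429 adjusted over the 3 ratios). This ratio shares its Ntrk2 values with the ratio of the Trk genes, so it is not separate evidence.

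The sortilin partner Ngfr and the ligand Bdnf were close to 0. Ngfr (chromosome 11, 95568818 to 95587735) had 17, 10, 0 and 0 counts in dorsal striatum 1 to 4 and 4, 0, 8 and 0 in accumbens 1 to 4. Bdnf (chromosome 2, 109674700 to 109727007) had 0, 14, 1 and 0 counts in dorsal striatum 1 to 4 and 25, 0, 67 and 0 in accumbens 1 to 4. Each gene was detected in 2 libraries of each region and was at 0 in the other 2, so no difference was detectable at this depth. Bdnf is a gene of cortical glutamatergic neurons. Markers of these neurons summed to 53.1, 91.3, 9.41 and 2.96 CPM in dorsal striatum 1 to 4. In accumbens 1 to 4 the sums were 76.7, 92.6, 78.3 and 20.6 CPM. The part of these neurons in the Bdnf counts was not tested. The 5 cholinergic markers summed to 0.355 to 4.03 CPM and 0.987 to 10.4 CPM, with Slc18a3 and Gbx2 at 0 throughout. Of the 8 other ligand genes of both families, Ntf5, Nrtn and Gdf15 had no count in any library and only Gdnf was abundant enough to be tested.

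Levels of different genes can be compared only per length, so CPM was divided by the length of each gene's longest protein-coding transcript. In dorsal striatum the order was Sort1 (58.2 CPM per kilobase), Ntrk2 (28.9), Ntrk3 (6.72), Gfra2 (5.46) and Gfra1 (2.91), followed by Ret, Ngfr and Bdnf at 0.275 or less. The libraries of Sort1, Ntrk2 and Ntrk3 did not overlap, while Ntrk3 and Gfra2, and Gfra2 and Gfra1, overlapped. In accumbens Sort1 (55.9 CPM per kilobase) and Ntrk2 (34.6) again led without overlap. Gfra1 (10.2) and Gfra2 (8.20) overlapped each other. Ntrk3 (5.42, 4.97 to 5.82 over libraries) lay below every library of Gfra1, which started at 6.71, but overlapped Gfra2. The order of Ntrk3 and Gfra1 depends on the lengths used, 19703 and 4641 bases. Counts per gene do not show which transcript was present. Bdnf, Ret and Ngfr were at 0.442 or less. With the summed length of all annotated exons instead, Gfra2 (5.36) stood above Ntrk3 (4.39) in dorsal striatum and Ngfr above Ret, and the accumbens order was the same.

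Sortilin has 4 relatives that share its ligand-binding domain, and 3 of them differed between the regions while Sort1 did not pass. Sorcs3 (chromosome 19, 48206025 to 48805505) stood at 39.8, 27.8, 26.3 and 25.6 CPM in dorsal striatum 1 to 4 and at 70.96, 69.5, 99.2 and 78.5 CPM in accumbens 1 to 4. It rose 2.66-fold without overlap (log2 fold change 1.41 ± 0.21 SE, edgeR adjusted p = 5.77e-04) and was called under all 18 alternatives, with adjusted p up to 0.00681. Sorl1, which encodes a sorting receptor for the amyloid precursor protein and TrkB, rose from 70.8 ± 8.94 to 119 ± 14.01 CPM (SD over n = 4 libraries each; log2 fold change 0.75 ± 0.16 SE with adjusted p = 0.0108 in edgeR). It was no longer called with the glial marker covariate (log2 fold change 0.62, adjusted p = 0.181) and without accumbens 2 and dorsal striatum 3 together (0.0697). Sorcs2, which encodes a receptor that pairs with p75 and TrkB, went the other way. It stood at 66.5, 40.1, 50.9 and 44.5 CPM in dorsal striatum 1 to 4 and at 25.2, 18.3, 34.5 and 21.3 CPM in accumbens 1 to 4, without overlap. Its log2 fold change of -1.02 ± 0.25 SE (adjusted p = 0.0260) did not stay called when dorsal striatum 1 or 3 or accumbens 1, 2 or 4 was left out (adjusted p up to 0.122), without accumbens 2 and dorsal striatum 3 together (0.105) and with the glial marker covariate (log2 fold change -0.89, adjusted p = 0.214). The fourth, Sorcs1, stood at 84.6 ± 9.80 and 69.7 ± 8.48 CPM and was not called (adjusted p = 0.489). Of the 6 tested genes among the 9 other receptors and co-receptors, 2 were called higher in accumbens and 1 lower. Over all tested genes, 1.6% were called higher and 2.12% lower. The median log2 fold change of the 6 was 0.17 where all tested genes had 0.02. This list was chosen with earlier results of these data known. Gfra3 and Gfral had no count in any library.

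**Figure D4:**
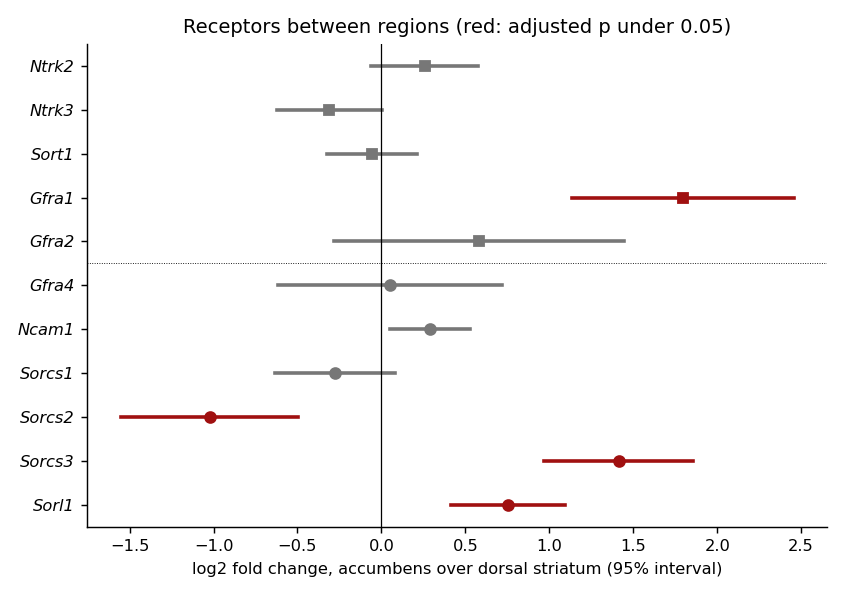
Log2 fold change of accumbens over dorsal striatum with its 95% interval for the 5 tested members (squares, above the dotted line) and 6 related receptors (circles), red where called. Gfra1, Sorcs3 and Sorl1 lie to the right of 0 and Sorcs2 to the left, while the intervals of Ntrk2, Ntrk3, Sort1 and Gfra2 include 0.

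Over all pathway lists beyond the members, 9.82% of 112 tested genes were called, against 3.72% of all genes, 2 of them higher and 9 lower in accumbens. Of 15 tested receptor adaptors, edgeR, DESeq2 and limma-voom each called 0, with 2 at an unadjusted p below 0.05 in each, and their median log2 fold change was -0.03. The abundant ones, Kidins220, a scaffold of Trk receptors (533 ± 53.7 and 546.5 ± 52.5 CPM), Ptpn11, a phosphatase of Ras signalling (244 ± 5.18 and 201 ± 34.4 CPM), and Frs2, a docking protein (133.5 ± 22.3 and 130.5 ± 11.6 CPM), did not pass (SD over n = 4 libraries each). Of 16 partners of p75 and Trk, edgeR called 0 higher and 1 lower, where DESeq2 and limma-voom each called 2 in all. The edgeR call was the ubiquitin ligase gene Nedd4l (1906 ± 309.8 and 1262 ± 120.4 CPM; edgeR log2 fold change -0.59 ± 0.12 SE with adjusted p = 0.00875). Of 13 tested feedback inhibitors of ERK signalling, edgeR, DESeq2 and limma-voom each called 0, with 3 at an unadjusted p below 0.05 in each, and the median was -0.18.

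Of 23 genes of the Ras-ERK cascade, edgeR called 1, DESeq2 4 and limma-voom 3. The edgeR share of 4.35% was near the 3.72% of all tested genes. The edgeR call was the gene Rps6ka5 of a nuclear kinase that acts below ERK. It fell from 80.6 ± 17.8 to 43.8 ± 4.29 CPM in accumbens (SD over n = 4 libraries each; log2 fold change -0.88 ± 0.20 SE, edgeR adjusted p = 0.0142), but it was not called when dorsal striatum 3 or accumbens 1 was left out (adjusted p up to 0.0626) or without accumbens 2 and dorsal striatum 3 together (0.0697). Braf, a kinase gene of the cascade at 768.5 ± 110.4 and 707 ± 42.3 CPM, was not called (edgeR adjusted p = 0.729). Of 16 genes of the PI3K-AKT cascade, 0 were called higher and 2 lower, as were 1.6% and 2.12% of all tested genes. Gsk3b, a kinase that AKT inhibits, fell from 1583 ± 252 to 967 ± 102 CPM (log2 fold change -0.71 ± 0.13 SE, edgeR adjusted p = 0.00235). Foxo1, a transcription factor gene restrained by AKT, fell from 604.5 ± 72.2 to 404 ± 42.7 CPM (-0.58 ± 0.13 SE, adjusted p = 0.0115), a call that did not hold without dorsal striatum 1 (0.0515) or without accumbens 2 and dorsal striatum 3 together (0.0659).

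Genes that neurotrophins are known to induce, which also follow other neuronal activity, had the lowest median of the 9 pathway lists, -0.32 over 12 genes. In accumbens 3 were called lower and 0 higher, where 2.12% and 1.6% of all tested genes were. Egr1 fell from 1480.02 ± 175 to 852 ± 118 CPM (SD over n = 4 libraries each; log2 fold change -0.80 ± 0.12 SE, edgeR adjusted p = 8.20e-04), and Egr3 and Homer1 had log2 fold changes of -0.78 ± 0.14 and -0.72 ± 0.12 SE. These 3 were called under all 18 alternatives. Among 10 tested genes that process neurotrophin precursors, 1 was called, Serpine2, an inhibitor of the proteases that activate them. It fell from 155 ± 10.9 to 94.05 ± 20.8 CPM (edgeR adjusted p = 0.0197), but leaving out dorsal striatum 1, 2 or 3 or accumbens 3 or 4 ended the call (adjusted p up to 0.0686). The calls of Nedd4l, Rps6ka5, Gsk3b and Foxo1 were lost with the glial marker covariate, at adjusted p of 0.145, 0.238, 0.0629 and 0.136, with log2 fold changes of -0.44, -0.64, -0.55 and -0.52. Beside these lower genes, 9 markers of striatal projection neurons summed to 11535 to 12978 CPM over the dorsal libraries and 8089 to 9239 CPM over the accumbens ones. Of the 9, 5 were called lower, as were 2.12% of all tested genes. The part of these markers in the lower levels was not tested.

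**Figure D5:**
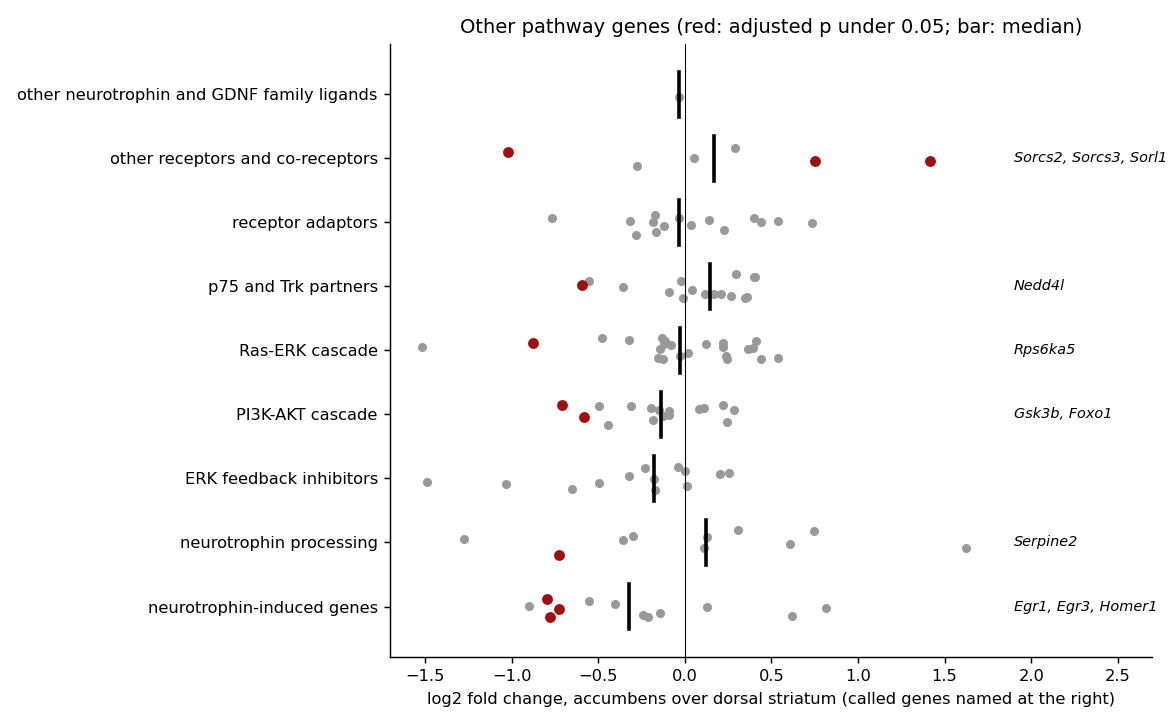
Log2 fold change of accumbens over dorsal striatum for each tested gene of 9 pathway lists, one list per line, with called genes in red and named at the right and the list's median as a bar. Outside the receptors, the called genes all lie to the left of 0, from -0.58 to -0.88.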

How the data were processed

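The authors deposited a table of unnormalized read counts by gene symbol for each library. Per the submitters' processing notes, STAR 2.0.0e (mm10) and HTSeq were used. The annotation, strand setting and filters are not given in the sources used here. Reads assigned to no gene, to several genes or aligned to several places, 27.1% to 40.6% of the reads in each table, were left out. In all 28 pairs of libraries, counts differed beyond sampling noise (chi-square per degree of freedom at least 16.4).

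Regions were compared by the quasi-likelihood F test of edgeR 4.0.16 (R 4.3.3; TMM scaling, filterByExpr with a minimum count of 10, region as the only term), adjusted over all 12467 genes kept. SEs were derived from each F statistic. Ratios use counts plus 0.5. The test was checked on simulated counts. Alternatives were other normalizations and filters, DESeq2 1.42.0, limma-voom (limma 3.58.1), the replicate number as a block, a glial covariate, thinning and left-out libraries. Leaving out accumbens 2 and dorsal striatum 3 for the ratios was added after seeing the data. Members, lists and ratios were chosen with earlier results of these data known. Named pathway genes are the called ones, up to 6 per list, and some of the 3 most abundant per list, while Gfra4 and genes without counts were named after their values were seen. Bex3 was matched through its older symbol. Positions and lengths are from GENCODE M21 (GRCm38, the mm10 coordinates). Exons of Bdnf, Sort1 and Gfra1 overlap an antisense gene.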

Additional observations from a re-analysis of the deposited data

Results flagged for a closer look

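In 22 groups of 4 libraries (the CPM of the 8 members and the 3 ratios, in each region), 4 had a library whose gap to its nearest neighbour took most of the group's range. Chance gives about 1 in 20 for independent, normally distributed values. Counts near 0 and ratios that share genes are not such values, so the 4 groups are not measured against that rate. Gfra1 stood at 31.1 CPM in accumbens 3, below the other 3 accumbens libraries. Ntrk2 stood at 272 CPM in accumbens 4, also the lowest of its group. Bdnf stood at 1.49 CPM in dorsal striatum 2 and Ret at 5.26 CPM in dorsal striatum 3, each the highest of a group with libraries at 0.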

How the results depend on the processing

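Of 18 alternatives to the fit across all genes, 16 gave a count of called genes within 1.5 times of 464. The others were DESeq2 and the glial marker covariate. DESeq2 called 795 (392 higher and 403 lower in accumbens) of 18919 genes with a p-value, a larger set than the 12467 of the main fit. With the glial marker covariate 212 (89 and 123) of the same 12467 were called. Leaving out 1 library gave 324 to 411 called genes and 1 called member each time. With the glial covariate 0 members were called by edgeR, 1 at an unadjusted p under 0.05, since Gfra1 had a log2 fold change of 1.47 (adjusted p = 0.0509). DESeq2 and limma-voom called 1 member each. Gfra1 was called under the other 17 alternatives (adjusted p from 1.03e-06 to 0.0126), among them the replicate block (log2 fold change 1.87, adjusted p = 8.97e-04). With 1 library left out, log2 fold changes ran from 1.59 to 2.11 for Gfra1, from 0.13 to 0.36 for Ntrk2, from -0.36 to -0.21 for Ntrk3 and from 0.29 (without accumbens 2) to 1.17 (without dorsal striatum 2) for Gfra2. Sort1 ran from -0.11 to 0.017 and turned positive without dorsal striatum 1 (0.0056) or accumbens 3 (0.017). Ntrk2, Ntrk3, Sort1 and Gfra2 were called under none of the 18.

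The labels do not say whether a replicate number marks the same animal in both regions. Deviations of same-numbered libraries from their region means had correlations of 0.0991, -0.0507, -0.0438 and -0.0090, which do not decide it. The replicate block called 432 genes. For the ratios, 4 same-numbered pairs cannot go below p = 0.125 in an exact permutation test, which the block gave for both the Trk genes (0.59) and Sort1 to Ntrk2 (-0.34). Without accumbens 2 and dorsal striatum 3 these differences were 0.63 and -0.38, and 3 against 3 cannot go below 0.100. Leaving out 1 library gave 0.35 to 0.71 for Ntrk2 to Ntrk3 and -0.41 to -0.23 for Sort1 to Ntrk2. Each time the exact permutation p was 0.0571, the smallest that 3 against 4 libraries allow, so these designs were too small to pass. For Gfra1 to Gfra2 the differences were 0.88 to 1.42. Their adjusted exact permutation p ran from 0.0571 to 0.171, so most were above that limit. In the fit of all 8 libraries the filter left out Bdnf, Ngfr and Ret. With libraries left out, Bdnf or Ret entered some of the filtered fits and was never called (edgeR adjusted p at least 0.460). Without the filter the log2 fold changes of Bdnf, Ngfr and Ret were 2.18, -1.58 and 0.32 (edgeR adjusted p = 0.515, 0.697 and 0.945). The coefficient of variation between replicates beyond counting noise, taken from edgeR's fitted trend, had a median of 0.171 over 100 CPM and 0.771 under 5 CPM. Low genes therefore need larger differences to be called.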
